A study of Mus musculus with 2 samples.

Results

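Type I interferon-stimulated genes form a set of 38 named genes that cells switch on when interferon binds its receptor. The genes were chosen by name, as known interferon targets, and earlier results of these data were known when they were chosen. Of the 38, 37 were measured here, out of 31053 genes in the count tables, and Mx2 was not analysed here. Part of the set is also found among the markers that the study drew from data that include these libraries for its interferon-rich endothelial cluster, so the set is not independent evidence of a direction in these cells. Each gene was followed by library and by endothelial class, and genes with a unique molecular identifier (UMI, a tag that marks 1 captured RNA molecule) in few cells were separated from genes with one in most cells.

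Type I interferons are secreted proteins, mainly the IFN-alpha family and IFN-beta, which bind the receptor made of IFNAR1 and IFNAR2. The receptor's kinases JAK1 and TYK2 activate the complex ISGF3, which holds STAT2 and IRF9 and binds interferon-stimulated response elements in the promoters of target genes. The targets include RNA sensors, antiviral effectors and the factors STAT2, IRF7 and IRF9 themselves, and many of them also respond to type II or type III interferon. Lung endothelium responds to interferon, and a small share of endothelial cells with high levels of these genes is known from several mouse organs.

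The data comprised 1 control library, from C57BL/6 wild-type mice that had received phosphate-buffered saline (PBS) through the tail vein 6 h earlier, and 1 metastatic library, from such mice 6 h after 200000 B16-F10 cells each by the same route, a mouse melanoma line labelled with a green dye. Each library pooled lung cells of 2 mice, sorted by antibody to the endothelial protein PECAM1. The study's methods describe male mice for these injections. They give 8 to 12 weeks as the age over all its experiments, and a narrower range within it for such injections. PECAM1 was the only protein named for this sort, so cells with the leukocyte protein PTPRC were not gated out. Each group was 1 library of pooled mice, so there was no replicate spread to judge a difference by and no test was made, and every interval is at 95% and covers counting error only.

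The libraries held 67929614 and 64733724 UMIs. Barcodes with 1000 to 5000 genes and under 20% mitochondrial UMIs were taken as cells, 7134 in the control and 6466 in the metastatic library, and 16 of these barcodes were called in both. Cells were classed by marker RNA. General capillary cells, with at least 2 of Gpihbp1, Aplnr, Kit and Lpl, numbered 5020 and 4519, with median depths of 5950.5 and 6275 UMIs. Aerocytes, the thin capillary cells of gas exchange (Ednrb, Fibin, Tbx2), numbered 1364 and 1086. Vein cells (Slc6a2, Car8, Bst1) numbered 247 and 304, and artery cells (Gja5, Bmx, Fbln5) 63 and 59. In control general capillary cells the 6 endothelial markers were each detected in 67.1% to 99.0% of the cells, and Ptprc in 1.33%.

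The core letters of the element that ISGF3 binds were searched for in the members' promoters, and binding was not measured. RefSeq promoter sequences of GRCm38.p6, from 250 bases before to 50 bases after a gene's start, were available for 28 of the 37 measured members. The core of the response element, GAAANNGAAA on either strand (overlapping matches counted), was found in 14 of the 28, or 50.0%, against 3.99% of 27025 genes with a promoter. Among the members detected in few general capillary cells 5 of 8 held it, and among those in between 8 of 19. The stretches shown here are a choice among the members with a match. Ifit1, Ifit3 and Isg15 helped to define the cells of the cell-by-cell results below. Ifit3b and Rsad2 were among their closest followers, Ifi206 followed them too, and Ifi207 and Bst2 were among the weakest. Stat2 is a factor of ISGF3 itself. Of the other closest followers, Oasl1 and Ifi44 had no match and Usp18 had no promoter sequence. These promoter stretches are on the strand of each gene, with the core in capitals:
Ifit1, chr19:34640770-34640828, plus strand: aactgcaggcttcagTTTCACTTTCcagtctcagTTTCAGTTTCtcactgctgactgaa
Ifit3, chr19:34583358-34583431, plus strand: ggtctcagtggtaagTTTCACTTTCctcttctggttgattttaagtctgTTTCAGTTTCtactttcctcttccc
Ifit3b, chr19:34607754-34607827, plus strand: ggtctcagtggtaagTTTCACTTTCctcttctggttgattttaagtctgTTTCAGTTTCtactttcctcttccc
Isg15, chr4:156200860-156200911, minus strand: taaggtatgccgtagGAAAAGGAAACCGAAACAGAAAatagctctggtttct
Rsad2, chr12:26456548-26456587, minus strand: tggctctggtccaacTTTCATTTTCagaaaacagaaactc
Stat2, chr10:128270261-128270300, plus strand: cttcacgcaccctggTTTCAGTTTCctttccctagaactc
Ifi206, chr1:173491334-173491373, minus strand: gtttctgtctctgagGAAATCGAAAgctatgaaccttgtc
Ifi207, chr1:173741826-173741865, minus strand: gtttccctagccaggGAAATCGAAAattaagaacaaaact
Bst2, chr8:71537572-71537617, minus strand: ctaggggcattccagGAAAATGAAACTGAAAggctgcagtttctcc

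The stretches of Ifit3 and its neighbour Ifit3b were identical over all 74 bases, while their promoters, laid side by side without gaps, matched at 201 of 268 bases. Isg15 held 3 overlapping matches and Ifit1 2 separate ones. Ifi206 and Ifi207 held the same core, GAAATCGAAA, within flanks that left 24 of 40 bases identical. Bst2, which carried 2 overlapping matches, was the 1 member detected in most cells, so a match was not confined to genes that were on in few cells. With 1 gene on in most cells, whether a match separates these groups cannot be told. No match was found in the windows of Ifit2, Oasl1, Oasl2, Irf7, Irf9, Cmpk2, Ifi44, Ifi35, Dtx3l, Xaf1, Lgals3bp, Herc6, Samd9l and Sp100, which says only that these letters are not in those windows.

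The members differed widely in how many general capillary cells carried their RNA. Only Bst2, tetherin, which holds budding virus at the cell surface, was detected in more than 50% of the control cells, in 89.8%. For 23 members the share lay between 10.5% for Ifi44 and 48.7% for Parp14, and for 13 it was under 10%, from 9.14% for Rsad2 down to 0.12% for Mx1. The members just inside and just outside the 10% limit were Rsad2 at 9.14%, Ifit3b at 9.12% and Ifi44 at 10.5%. Mx1, a GTPase against influenza virus that is defective in C57BL/6 mice, was read with 6 and 18 UMIs and stayed under the minimum of 100 UMIs over both libraries that was set for comparing levels. The other 36 members passed this minimum in general capillary cells.

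**Figure D1:**
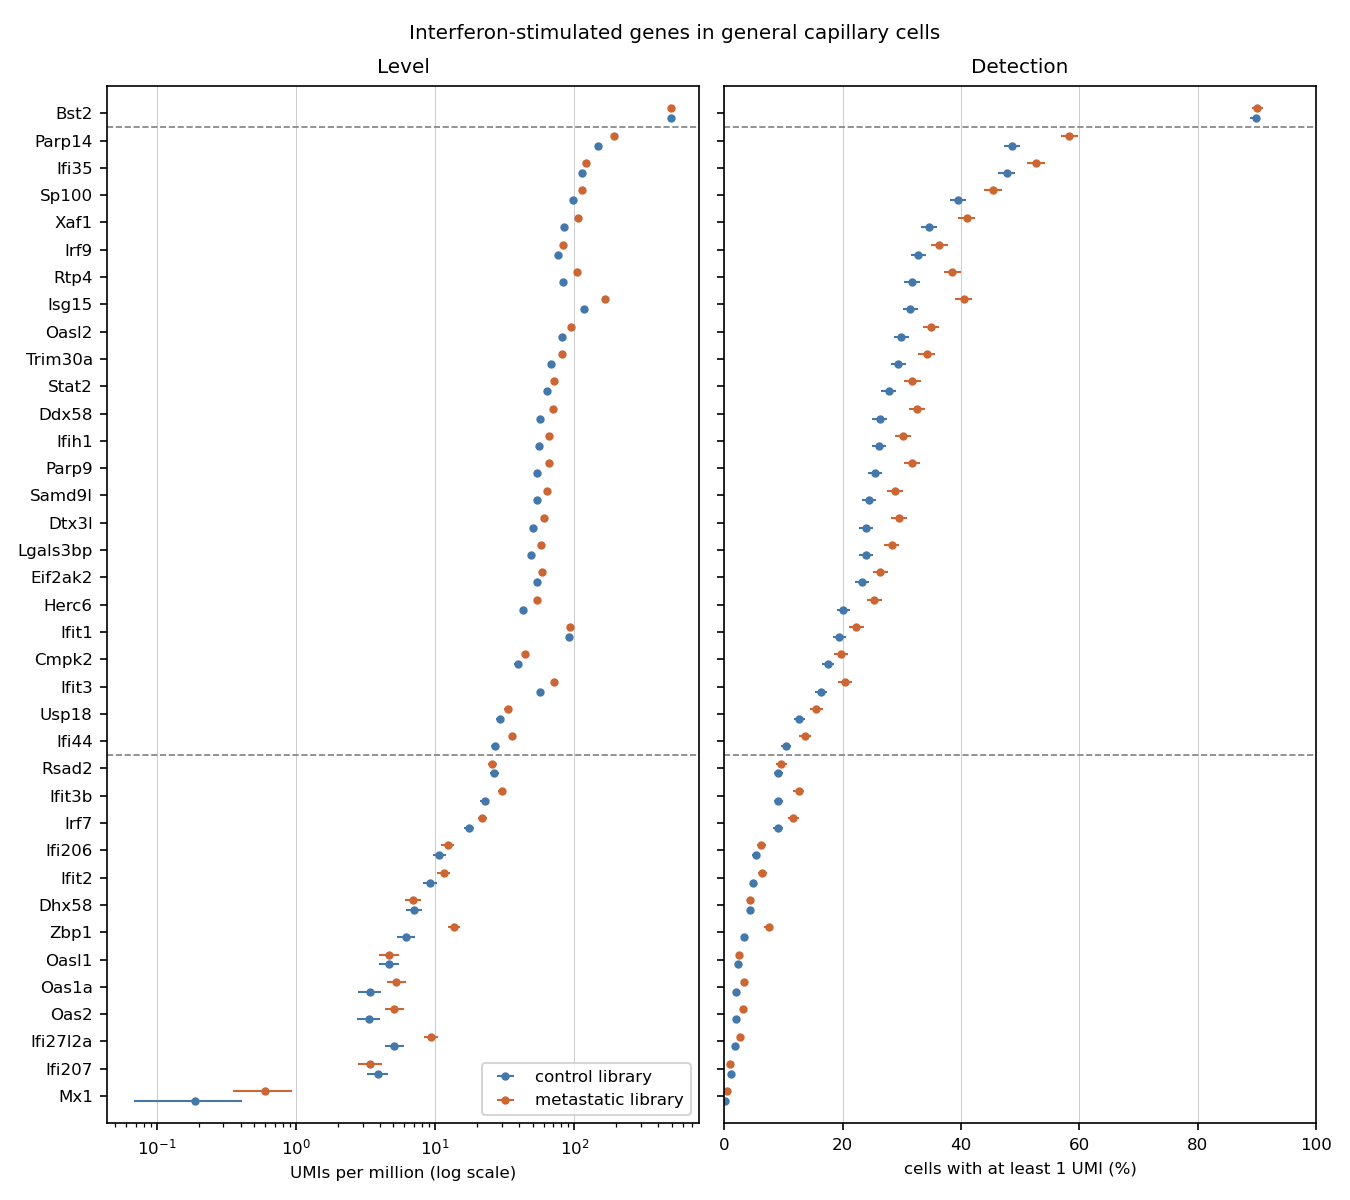
Level (left, CPM, log scale) and detection (right, percent of cells with at least 1 UMI) of the 37 measured members in general capillary cells, with control in blue, metastatic in orange and 95% counting intervals as bars. Dashed lines separate the 13 members in under 10% of control cells, the 23 in between and Bst2, whose points coincide.

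The comparison of the libraries asked how endothelial transcripts differed 6 h after the arrival of melanoma cells. Levels are UMI counts per 1000000 UMIs of the class (CPM), and a gene is counted as higher where its level was at least 25% higher, a log2 ratio of 0.32 or more, and as lower at a log2 ratio of -0.32 or less. Wherever a pair of values is given for the libraries, the control comes first. In general capillary cells, 12 of the 36 members were higher in the metastatic library, where the background was 10.5% of 11220 genes. None was lower, against a background of 5.87%. The members' median log2 ratio was 0.26, beside 0.02 for all genes, and 33 of 36 ratios lay above 0, beside 54.6% of all genes. Marker RNA of other cells also differed between the libraries in these cells, with sums of 14.1 and 26.5 CPM for 7 lymphoid, 385 and 277 CPM for 8 myeloid, 160 and 247 CPM for 3 platelet, 1607 and 673 CPM for 3 red cell and 1614 and 951 CPM for 3 epithelial markers, and Ptprc at 9.44 and 13.9 CPM. Their part in the members' ratios was not tested. In barcodes with 11 to 50 UMIs, which hold free RNA rather than cells, the members summed to 3646 (3502–3796) and 3490 (3356–3629) CPM, with intervals that overlap. Single members differed there, with Ifit1 at 74.6 and 96.1 CPM, Ifit3 at 74.6 and 102 CPM and Isg15 at 315 and 296 CPM, and the part of free RNA in the ratios was not tested. The 13 members in few cells summed to a log2 ratio of 0.32 (0.26 to 0.39), the 23 in between to 0.26 (0.25 to 0.28), and Bst2 stood at 0.00 (-0.03 to 0.03).

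Of the IFIT proteins, IFIT1 binds viral RNA that lacks the host's cap methylation. The IFIT genes lie side by side on chromosome 19, with Ifit1 at chr19:34640871-34650009 in the GENCODE M21 annotation of GRCm38. Ifit3 was read at 56.3 (53.7–58.9) and 71.7 (68.7–74.8) CPM, a log2 ratio of 0.35 (0.26 to 0.44). Ifit3b was read at 22.6 (21–24.3) and 30.3 (28.4–32.4) CPM, a log2 ratio of 0.43 (0.28 to 0.57). Both were higher in the metastatic library by more than their counting intervals. Ifit2 was read at 9.13 (8.11–10.2) and 11.5 (10.3–12.8) CPM, with a log2 ratio of 0.34 (0.11 to 0.57). Ifit1 had the lowest ratio of the cluster, with 90.7 (87.4–94.0) and 93.6 (90.1–97.1) CPM and a log2 ratio of 0.05 (-0.03 to 0.12). It was detected in 19.4% of control and 22.3% of metastatic cells, with 2.99 and 2.81 UMIs per cell that carried it.

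Isg15, a ubiquitin-like protein that is joined to other proteins, was higher in the metastatic library, with 117 (114–121) and 167 (162–171) CPM and a log2 ratio of 0.51 (0.44 to 0.57). It was detected in 31.4% of control and 40.4% of metastatic cells, and in 15.2% and 20.9% once each cell had been thinned to 2000 UMIs by random draw. Herc6, a mouse ligase of ISG15, had 42.8 (40.5–45.1) and 53.7 (51.1–56.4) CPM and a log2 ratio of 0.33 (0.22 to 0.43). Usp18, the protease that removes ISG15 and dampens the receptor, stood below the limit, at a log2 ratio of 0.20 (0.07 to 0.33).

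The oligoadenylate synthetases make a messenger that activates RNase L upon double-stranded RNA. Oas1a and Oas2 were read in few cells, 2.01% and 1.99% of control cells, and both had higher values in the metastatic library. Oas1a had 3.36 (2.76–4.06) and 5.25 (4.46–6.13) CPM and a log2 ratio of 0.64 (0.28 to 1.01), and Oas2 3.33 (2.73–4.03) and 5.08 (4.31–5.95) CPM and 0.61 (0.24 to 0.98). The related Oasl1 did not differ beyond counting error, at a log2 ratio of 0.00 (-0.34 to 0.35), and Oasl2, detected in 29.9% of control cells, had 0.23 (0.15 to 0.30). The 3′ ends of Oas1a transcripts share 42.5% of their 89-base stretches, the length of a read, with Oas1g, so reads of the pair may have been divided between them or lost.

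The sensors of foreign nucleic acid differed among themselves. Zbp1, which binds Z-form nucleic acid and can trigger necroptosis, had the highest ratio of the 36 members, with 6.17 (5.34–7.09) and 13.6 (12.3–15) CPM and a log2 ratio of 1.14 (0.89 to 1.39). It was detected in 3.31% of control and 7.50% of metastatic cells, and no cell held more than 6 of its UMIs. The RNA helicases Ddx58 (RIG-I) and Ifih1 (MDA5) stayed under the limit, with log2 ratios of 0.31 (0.22 to 0.40) and 0.22 (0.13 to 0.31). Dhx58 (LGP2), which tunes both, had -0.03 (-0.31 to 0.25). The DNA-binding Ifi206 and Ifi207, members of the family around AIM2, had 0.20 (-0.02 to 0.41) and -0.18 (-0.58 to 0.20), intervals that include 0. Ifi206 shares 12.3% of its 3′ stretches with Gm18752.

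Among the factors, Irf7, which amplifies the interferon response, had 17.5 (16.1–19.0) and 21.8 (20.1–23.5) CPM and a log2 ratio of 0.31 (0.15 to 0.48), just under the limit. The ISGF3 subunits Stat2 and Irf9 had log2 ratios of 0.18 (0.10 to 0.27) and 0.12 (0.04 to 0.20). The ADP-ribosyltransferase Parp14 was at 148 (144–152) and 192 (187–197) CPM, a log2 ratio of 0.37 (0.32 to 0.43), whereas Parp9 and its partner Dtx3l, a ubiquitin ligase, had 0.28 (0.18 to 0.37) and 0.27 (0.18 to 0.37). Parp9 and Dtx3l are neighbours on chromosome 16 and are transcribed in opposite directions.

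The other effectors showed the same range. Ifi44 had 27.0 (25.2–28.8) and 35.7 (33.6–37.8) CPM and a log2 ratio of 0.40 (0.27 to 0.53), and Rtp4, a chaperone of membrane receptors, 83.0 (79.9–86.2) and 105 (100.9–108) CPM and 0.33 (0.26 to 0.41). Rsad2 (viperin), which makes a chain-terminating nucleotide, had 26.6 (24.8–28.4) and 25.7 (23.9–27.6) CPM, so its levels did not differ beyond counting error. In the control library 2 cells held 100 of its 854 UMIs. Cmpk2, the kinase next to Rsad2 on chromosome 12, had a log2 ratio of 0.18 (0.07 to 0.29), and Eif2ak2 (PKR), which halts translation upon double-stranded RNA, 0.11 (0.02 to 0.21). The nuclear body protein Sp100 had 0.21 (0.14 to 0.29), the pro-apoptotic Xaf1, just under the limit, 0.32 (0.24 to 0.39), Trim30a 0.27 (0.19 to 0.36), Samd9l 0.24 (0.14 to 0.33), Lgals3bp 0.24 (0.14 to 0.34) and Ifi35 0.12 (0.05 to 0.18).

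Ifi27l2a, a small mitochondrial protein's gene, had 5.08 (4.33–5.92) and 9.31 (8.25–10.5) CPM and a log2 ratio of 0.87 (0.59 to 1.16). Its RNA was uneven, with 5 cells of each library holding 23.3% and 26.6% of its UMIs. In the free RNA it stood at 420.4 and 358 CPM, far above its level in general capillary cells. Lymphoid cells, picked by their own markers, had 418 and 337 CPM and myeloid cells 329 and 292 CPM. How much of its difference in endothelial cells came from free RNA was not tested.

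In aerocytes, 13 of the 30 members with enough UMIs were higher in the metastatic library, beside a background of 9.50% of 9504 genes, and none was lower, beside 5.15%. The median log2 ratio was 0.31, beside 0.03 for all genes. Ifit1, whose interval included 0 in general capillary cells, had 38.5 (35.0–42.3) and 56.9 (52.2–61.9) CPM in aerocytes, a log2 ratio of 0.56 (0.38 to 0.75). Rsad2 had 11.7 (9.83–13.9) and 19.1 (16.4–22.1) CPM, a log2 ratio of 0.70 (0.37 to 1.03), and Cmpk2 22.1 (19.4–25) and 34.5 (30.9–38.5) CPM, a log2 ratio of 0.65 (0.40 to 0.89). In each library 5 aerocytes held 24.5% and 16.5% of the UMIs of Ifit1 and 32.3% and 28.5% of those of Rsad2. The counting intervals do not cover this unevenness. Without those cells the log2 ratios were 0.71 for Ifit1 and 0.78 for Rsad2. Parp14 had a log2 ratio of 0.59 (0.48 to 0.69) and Ifi206 of 0.81 (0.39 to 1.24). Ifi27l2a, at 1.59 (1.1 to 2.11), rested on few cells, since 5 metastatic aerocytes held 65.0% of its UMIs. Bst2 had -0.08 (-0.13 to -0.02), and Zbp1, at 34 and 50 UMIs, was not compared. Whether the ratios of aerocytes and general capillary cells differ was not tested. Marker RNA of other cells differed here too, with sums of 609 and 87.8 CPM for epithelial, 7.33 and 18.5 CPM for lymphoid, 90.3 and 78.3 CPM for myeloid, 69.0 and 144 CPM for platelet and 1052 and 686 CPM for red cell markers, and its part in the ratios was not tested.

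In vein cells, 8 of 27 members were higher in the metastatic library, beside a background of 12.0% of 6260 genes, and 1 was lower, beside 10.5%. The median log2 ratio was 0.20, beside 0.01 for all genes. Isg15 had 145 (129.6–162) and 211 (194–229) CPM, a log2 ratio of 0.54 (0.34 to 0.74), and Cmpk2 23.1 (17.2–30.4) and 39.6 (32.4–47.9) CPM, a log2 ratio of 0.78 (0.28 to 1.29). Ifit3, Ifit3b, Usp18, Ddx58, Herc6 and Ifi44 were the others that were higher, and the interval of Ifi44 included 0. In each library 5 vein cells held 30.0% and 18.6% of the UMIs of Isg15 and 29.4% and 26.4% of those of Cmpk2. The counting intervals do not cover this unevenness. Without those cells the log2 ratios were 0.76 for Isg15 and 0.84 for Cmpk2. Ifi27l2a was the 1 lower member, with 64.4 (54.2–75.9) and 47.1 (39.2–56.1) CPM and a log2 ratio of -0.45 (-0.81 to -0.09). The vein cells of the 2 libraries differed in RNA of other cells, with 3 epithelial markers at 120 and 3470 CPM and 8 myeloid markers at 36.3 and 727 CPM in sum, and the part of this RNA in the ratios was not tested. Without barcodes that held over 100 epithelial UMIs, an alternative added after the data were seen, the members' median was 0.23.

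Artery cells were too few for most members. Only 4 had 100 UMIs, of which 2 were higher in the metastatic library, beside backgrounds of 16.8% higher and 13.4% lower among 1827 genes. These were Ifi207, with 54.8 and 154 CPM, and Sp100, with 81.1 and 167 CPM, while Parp14 and Bst2 were near equal. Of the UMIs of Ifi207, 66.7% and 69.3% lay in 5 cells. Myeloid markers summed to 32.4 and 362 CPM and platelet markers to 12.2 and 139.8 CPM in artery cells, and their part in the ratios was not tested.

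**Figure D2:**
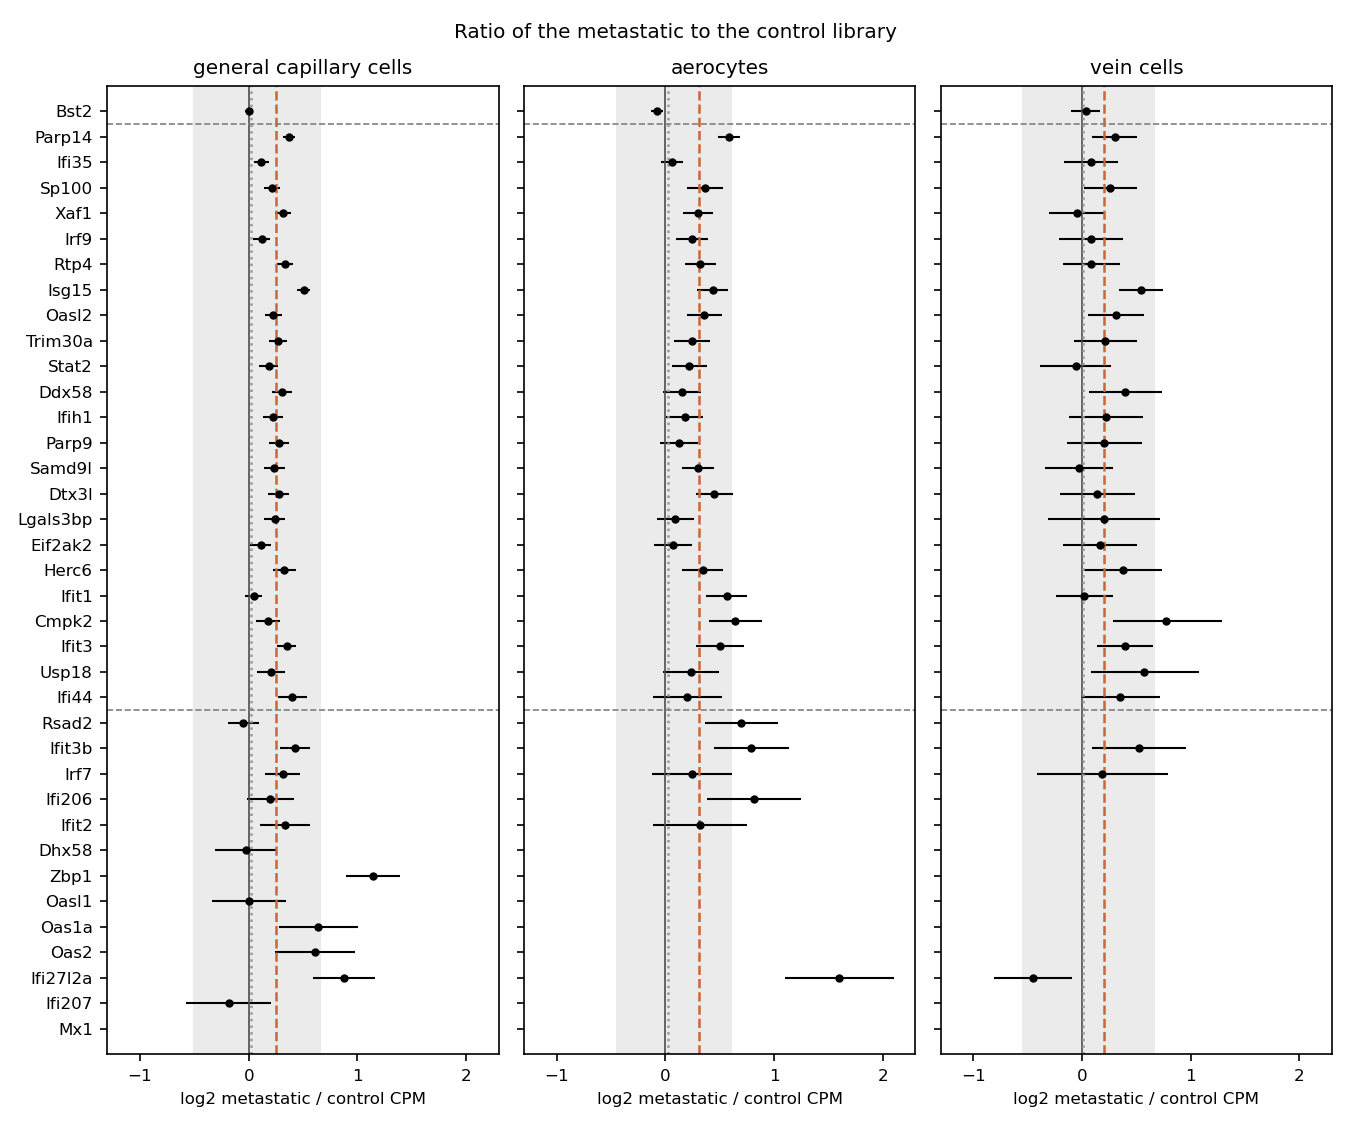
Log2 ratio of metastatic to control CPM for each member with at least 100 UMIs, in general capillary cells, aerocytes and vein cells, with 95% counting intervals. The grey band holds the central 95% of all genes, the dotted line is the median of all genes and the orange dashed line the median of the members (0.26, 0.31 and 0.20), which lies to the right of it in each panel.

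The members also differed by endothelial class, and this pattern could be read in each library on its own. In aerocytes 17 of 36 members were lower by the same limit than in general capillary cells in both libraries (background 16.3% of 10490 genes), and 2 were higher (background 14.5%). The log2 ratio of Isg15 was -0.85 (-0.96 to -0.73) in the control and -0.92 (-1.03 to -0.81) in the metastatic library, and that of Ifit3 was -0.96 (-1.13 to -0.79) and -0.81 (-0.97 to -0.65). Ifit1 stood at -1.24 (-1.38 to -1.09) and -0.72 (-0.85 to -0.58), and Sp100 at -0.92 and -0.77. The members that were higher in aerocytes were Ifi35, at 0.43 and 0.37, and Samd9l, at 0.34 and 0.41. Bst2 had 0.00 and -0.08.

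In vein cells 5 of 36 members were higher than in general capillary cells in both libraries (background 9.09% of 10232 genes) and 3 were lower (background 13.6%), counts near the background. Ifi27l2a had log2 ratios of 3.66 (3.33 to 4.0) and 2.34 (2.02 to 2.65), the highest of the vein values in both libraries. Ifi44 had 0.83 and 0.78, Ifit3 0.74 and 0.78, Zbp1 0.88 and 0.65, and Ifit3b 0.55 and 0.65. Rsad2 was lower, at -1.63 (-2.37 to -0.97) and -0.46 (-0.90 to -0.05), as were Lgals3bp, at -0.95 and -0.98, and Ifi206. Ifit1 had 0.14 and 0.11, so the genes of the IFIT cluster did not share 1 pattern across classes.

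In artery cells 3 of 36 were higher (background 8.92% of 10102 genes) and 10 lower (background 16.5%), on counts that were often under 30 UMIs. Ifi207, on 27 and 75 UMIs, had log2 ratios of 3.83 (3.17 to 4.44) and 5.50 (5.05 to 5.95), and Lgals3bp 0.90 and 0.65. Oas1a, at 0.85 and 1.65, rested on 3 and 8 UMIs. Isg15 was lower, at -0.81 (-1.35 to -0.32) and -1.3 (-1.84 to -0.80), as was Ifit1, at -1.02 and -1.51.

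**Figure D3:**
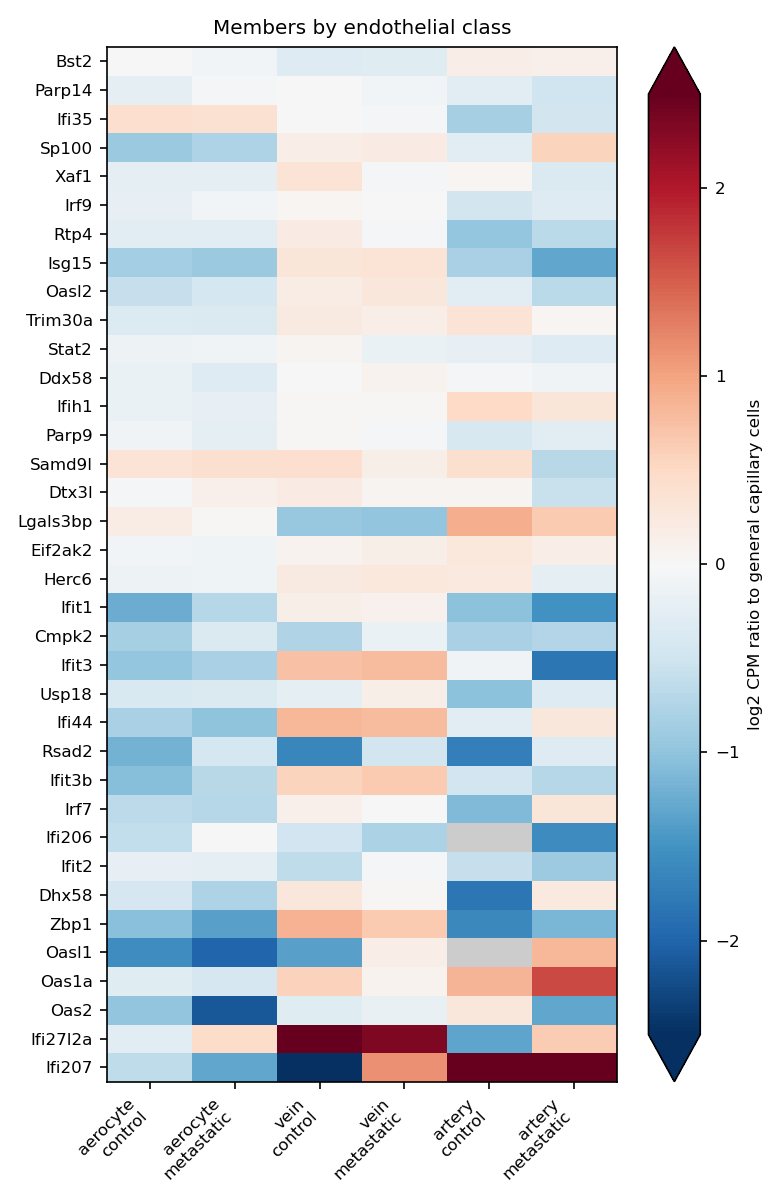
Log2 ratio of CPM in aerocytes, vein cells and artery cells to general capillary cells of the same library, for the 36 members compared, ordered by detection in control cells (grey, no UMI). Blue fields of Ifit1, Ifit3 and Isg15 in aerocytes and the red fields of Ifi27l2a in veins and Ifi207 in arteries are seen in both libraries.

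Shares of cells with a UMI carry free RNA too, and since no cell type is known to lack these genes, none served as a blank. Within general capillary cells the members' RNA was gathered in some cells. If the UMIs of Ifit1 were spread evenly by depth, 42.3% of the control cells would carry 1, against 19.4% observed, a ratio of 0.46. Ifit3 had a ratio of 0.55, Rsad2 0.59, Isg15 0.62, Ifi44 0.67 and Ifit3b 0.69. Over all 36 members the median ratio was 0.86 in each library, where that of all genes was 0.96 and 0.95. Of the 36, 15 in the control and 12 in the metastatic library lay under the value that 5% of all genes lay under. Ifi35 (0.97), Dhx58 (0.98) and Bst2 (0.98) had ratios near 1. The ratio falls where cells hold several UMIs of a gene. It says little of Dhx58, with 1.05 UMIs per control cell that carried it. Nor does it say much of Bst2, which even spreading would put in 92.1% of control cells. Dhx58 did follow other members from cell to cell, as given below.

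The same cells tended to carry several members. Of thinned control cells with a UMI of Ifit3, 47.1% (42.1–52.1) also had Ifit1, against 7.58% (6.82–8.38) of those without, and in the metastatic library the shares were 41.1% and 7.80%. For Isg15 they were 45.3% and 12.6% in the control and 48.9% and 17.8% in the metastatic library.

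To follow this from cell to cell, each cell was thinned to 2000 UMIs, and a cell was called Ifit-positive when it held at least 2 of Ifit1, Ifit2, Ifit3 and Isg15. Among general capillary cells 371 of 4947 control cells, or 7.50% (6.78–8.27), and 419 of 4461 metastatic cells, or 9.39% (8.55–10.3), were Ifit-positive. Another 73 and 58 cells were too shallow to be thinned. In aerocytes the shares were 3.69% (2.75–4.84) and 5.03% (3.80–6.51), in vein cells 9.76% (6.35–14.2) and 14.2% (10.5–18.6), and in artery cells 3 cells of each library. No lymphoid cell was positive, of 45 in each library, which allows a share of up to 6.67% where 3 counts are taken as the limit that a count of 0 allows, and no myeloid cell of 36 and 33, which allows up to 8.33% and 9.09%. The metastatic share was the higher in each endothelial class, and the intervals of the 2 libraries parted in general capillary cells alone. Unthinned, the shares of general capillary cells were 17.5% and 22.4%. The size of the difference depended on the genes used, since with at least 2 of Rsad2, Cmpk2, Usp18 and Irf7 the thinned shares were 2.41% and 2.80%.

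The other 33 members, which the definition did not use, were mostly higher in the Ifit-positive cells of both libraries. Of 32 with at least 20 thinned UMIs, 27 in the control and 24 in the metastatic library were at least 2-fold higher than in Ifit-negative cells of the same library, beside backgrounds of 2.41% and 1.99% of genes. Their median log2 ratio was 1.58 in each library, where all genes had -0.02 and -0.04. A positive cell held a median of 7 other members in each library, and a negative cell 2 in the control and 3 in the metastatic library. Before thinning, positive and negative cells had medians of 6169 and 5967 UMIs in the control and 6487 and 6292 in the metastatic library.

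**Figure D4:**
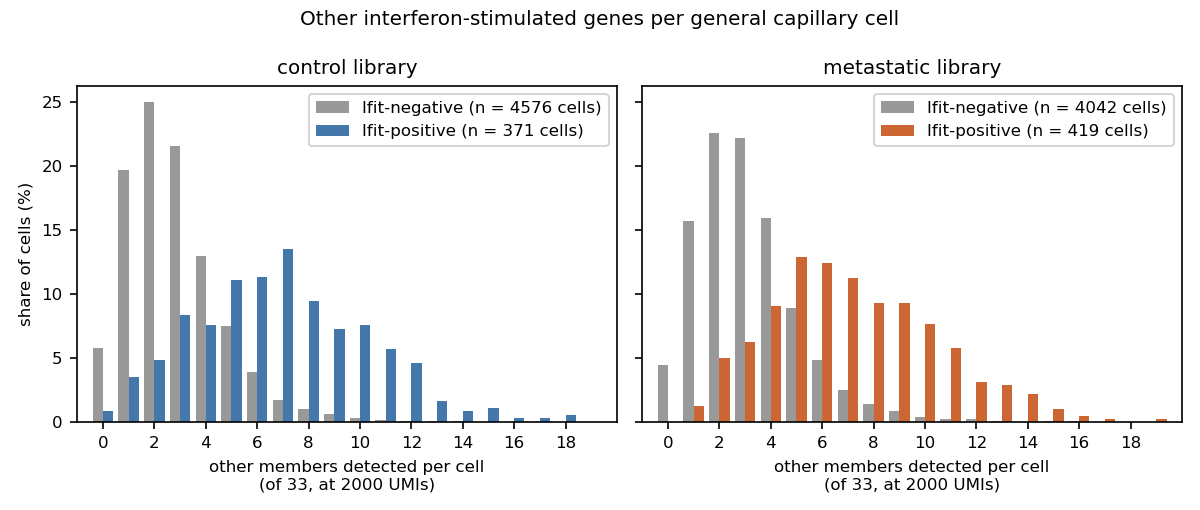
Number of the 33 other members detected in a general capillary cell at 2000 UMIs (horizontal) and share of cells (vertical, percent) in Ifit-negative cells (grey) and Ifit-positive cells (coloured) of each library. The coloured bars lie to the right in both libraries, with a median of 7 members against 2 in control and 3 in metastatic negative cells.

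The members that followed most closely were Ifit3b, Oasl1, Rsad2, Ifi44 and Usp18. Oasl1 had 16 and 23 UMIs in positive cells and log2 ratios of 3.38 (2.32 to 4.41) and 2.99 (2.12 to 3.83). These wide intervals leave its rank uncertain. Ifit3b stood at 13.3 CPM in negative and 116 CPM in positive control cells, and at 16.1 and 184 CPM in metastatic ones, with log2 ratios of 3.12 (2.70 to 3.53) and 3.51 (3.17 to 3.86). Ifit3 shares 6.8% of its 3′ stretches with Ifit3b, and Ifit3 was 1 of the genes that defined the cells. Rsad2 shares no 3′ stretch with another gene, and had 15.1 CPM in negative and 127 CPM in positive control cells, and 17.1 and 128 CPM in metastatic ones. Positive cells, 7.50% and 9.39% of the cells, held 40.5% and 43.7% of the UMIs of Rsad2, and 39.7% and 48.0% of those of Ifi44. Usp18, the brake on the receptor, had log2 ratios of 2.92 (2.56 to 3.27) and 3.00 (2.65 to 3.34).

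Values of the factors and helicases were spread below these. Irf7 had log2 ratios of 2.60 (2.11 to 3.08) and 2.20 (1.75 to 2.65), Dhx58 2.17 and 2.08, Stat2 1.42 and 1.17, Irf9 1.27 and 1.34, Ddx58 1.36 and 1.08, and Ifih1 0.99 and 1.00. Bst2 had 0.42 (0.28 to 0.55) and 0.61 (0.48 to 0.73), and its detection at 2000 UMIs was 60.1% in negative and 72.5% in positive control cells. Oas2, at -0.02 (-3.14 to 1.98) and 1.69 (0.55 to 2.71), Ifi207 and Ifi27l2a had intervals that included 0 in at least 1 library. Ifi207 had 1 and 3 UMIs in positive cells and log2 ratios of -1.46 (-6.81 to 1.11) and 0.40 (-1.99 to 2.13). Ifi206, whose promoter held the same core, had log2 ratios of 2.47 (1.85 to 3.06) and 2.86 (2.3 to 3.4).

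**Figure D5:**
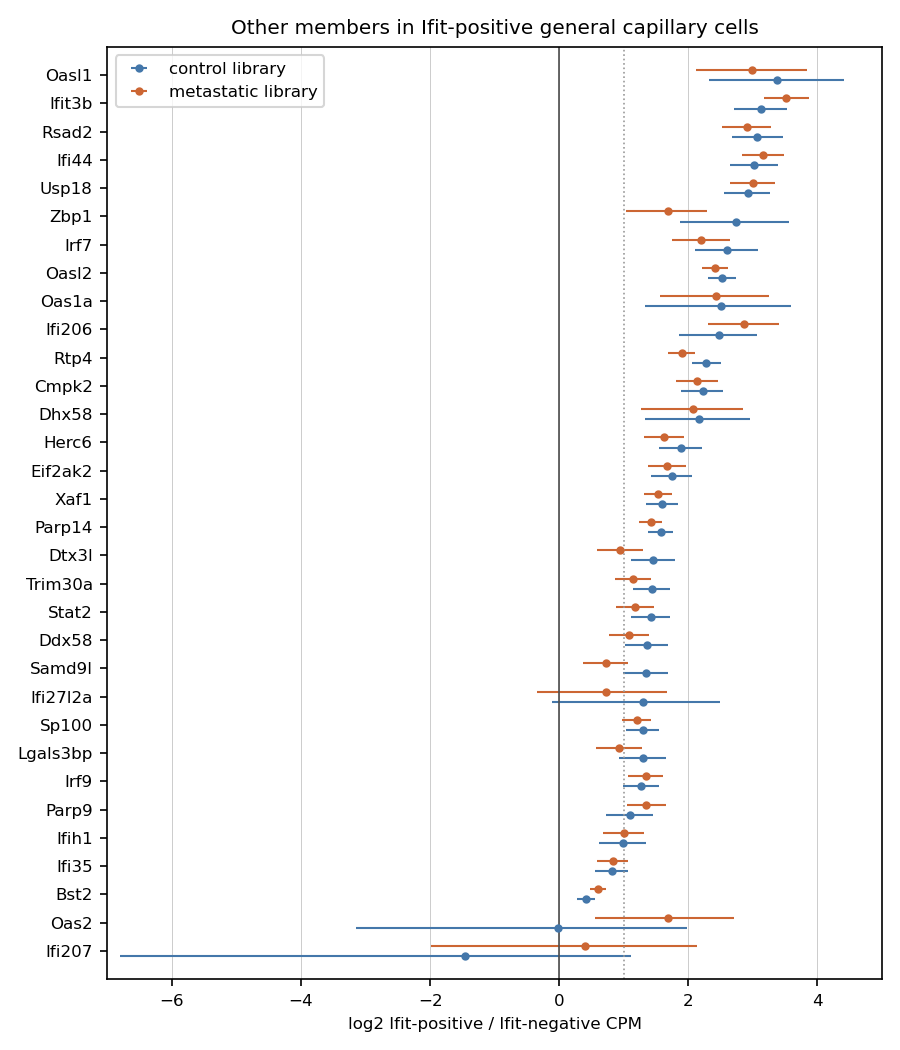
Log2 ratio of CPM in Ifit-positive to Ifit-negative general capillary cells for the 32 other members compared, in the control (blue) and the metastatic library (orange), with 95% counting intervals, a solid line at 0 and a dotted line at 2-fold. Oasl1 is highest in the control and Ifit3b in the metastatic library, Bst2 is low in both libraries, and the widest intervals belong to Oas2 and Ifi207, which have few UMIs.

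The difference between the libraries was seen in Ifit-negative cells as well. There the 33 other members summed to 1717 (1690–1744) and 1899 (1869–1929) CPM, with a log2 ratio of 0.15 (0.11 to 0.18), and in Ifit-positive cells to 4689 (4534–4847) and 5035 (4884–5189) CPM, with a log2 ratio of 0.10 (0.04 to 0.17). Bst2 alone was at 498 and 482 CPM in negative cells. The other members without Bst2 summed in negative cells to 1219 (1196–1241) and 1417 (1391–1443) CPM, with a log2 ratio of 0.22 (0.18 to 0.26). In positive cells they summed to 4023 (3880–4170) and 4302 (4163–4445) CPM, with a log2 ratio of 0.10 (0.03 to 0.17). Zbp1 stood at 4.04 and 11.1 CPM in negative cells, a log2 ratio of 1.46 (0.89 to 2.05), and at 27.0 and 35.8 CPM in positive cells, a log2 ratio of 0.41 (-0.45 to 1.30). A cell at 2000 UMIs can carry these genes and be read as negative, so the negative cells are not cells without them.

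Marker RNA of myeloid, epithelial and red cells was lower in positive than in negative cells. The 8 myeloid markers summed to 80.9 CPM in positive and 220 CPM in negative control cells, and to 71.6 and 204 CPM in the metastatic library. Epithelial markers summed to 149.6 and 649 CPM in control cells and 113 and 438 CPM in metastatic cells. Red cell markers summed to 462 and 1209.9 CPM in control cells and 345 and 546 CPM in metastatic cells. Lymphoid markers were at 6.74 and 10.3 CPM and at 16.7 and 16.9 CPM. Endothelial markers were near equal, at 6162 and 6362 CPM in control cells and 6590 and 6650 CPM in metastatic cells. Platelet markers were at 205 and 176 CPM in control cells and 183 and 266 CPM in metastatic cells.

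Genes outside the set that followed the same cells were ranked by the smaller of their log2 ratios in the 2 libraries, among 2688 genes with at least 50 UMIs in positive cells of each. Among the 15 highest were Slfn2, Gm4951, Ifi213, Igtp, Irgm1, Phf11d, Gbp5, Ifi47, Trim34a, Irgm2, Iigp1, Rnf213, Gbp3 and Ifi208. Slfn2, a Schlafen family gene, had 2.52 (2.22 to 2.80) and 2.29 (2.00 to 2.57). At least 7 of the genes code for immunity-related or guanylate-binding GTPases (Igtp, Irgm1, Gbp5, Ifi47, Irgm2, Iigp1 and Gbp3), with Igtp at 1.71 and 1.59 and Gbp5 at 1.97 and 1.49. These values chose the genes and are a description.

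The rest of the pathway was read from a list of 40 genes. In general capillary cells 30 had enough UMIs, of which 10 were higher in the metastatic library and 1 lower, beside backgrounds of 10.5% and 5.87%, with a median log2 ratio of 0.19 beside 0.02 for all genes. No UMI of the type I or type III ligands Ifnb1, Ifna4, Ifna2, Ifnk, Ifne, Ifnl2 or Ifnl3 was read in these cells, which by the same limit of 3 counts allows up to 0.0934 and 0.0990 CPM. Ifng, the type II ligand, had 7 UMIs in 2 control cells and none in metastatic ones, and 9 UMIs in metastatic lymphoid cells. The receptor genes Ifnar1 and Ifnar2 were detected in 29.7% and 51.5% of control cells, with log2 ratios of 0.10 (0.01 to 0.20) and -0.03 (-0.10 to 0.03). Ifngr1, of the type II receptor, had 181 and 235 CPM and 0.37 (0.32 to 0.42).

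Tmem173 (STING), the adaptor of DNA sensing, was read with 55 and 267 UMIs, in 1.00% and 4.56% of cells, a log2 ratio of 2.36 (1.94 to 2.81), and no cell held more than 6 of them. Among thinned cells it had 0 UMIs in Ifit-positive and 8 in Ifit-negative control cells, and 8 and 62 UMIs in metastatic ones, a log2 ratio of 0.32 (-0.96 to 1.38). Of the 7 type II targets listed, 5 were higher in the metastatic library and 1 was lower, beside backgrounds of 10.5% and 5.87%. Gbp2, Gbp3 and Igtp had log2 ratios of 0.76 (0.69 to 0.84), 0.56 (0.44 to 0.68) and 0.48 (0.38 to 0.58), and Ciita, the switch of MHC class II, 1.13 (0.90 to 1.36). Irgm1 stayed under the limit, at 0.19 (0.10 to 0.27). Cxcl10 had 384 and 944 UMIs, with 250 and 394 of them in 5 cells of each library. Cxcl9, the 1 lower gene, had 114 and 15 UMIs, but 1 control cell held 93 of the 114.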

How the data were processed

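Single-cell RNA was measured in 1 control and 1 metastatic library. The authors deposited raw UMI counts per gene and barcode, made with Cell Ranger (3.1.0 in the matrix headers) on mm10, with 6794880 barcodes listed per library and no cell annotation. The processing notes also name Seurat.

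From these counts, barcodes with 1000 to 5000 genes and under 20% mitochondrial UMIs were kept and classed by at least 2 markers of 1 endothelial class. Doublets were left in, and were left out in an alternative by the highest Scrublet scores (405 and 329 barcodes). UMIs were summed per class and library and given as CPM, per 1000000 UMIs of the class. Genes with at least 100 UMIs over both libraries were compared, and a log2 ratio of at least 0.32 either way was counted as higher or lower. Intervals at 95% were exact Poisson for levels, conditional binomial for ratios and Clopper-Pearson for shares, and cover counting error only. Cells were thinned to 2000 UMIs for cell-by-cell results. Total depth was 67929614 and 64733724 UMIs. With 1 library per group no test was possible, and the computations were tested on simulated data. Promoter windows came from RefSeq (GRCm38.p6), and 3′ stretches from the GENCODE M21 transcripts.

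The genes named are all members, a list of 40 pathway genes, and the 15 outside genes with at least 50 UMIs in Ifit-positive cells of each library whose smaller log2 ratio was largest. A gene counted in these lists is not reported here by name. The members and lists were chosen with earlier results of these data known. Alternatives changed the cell filters, class gate, scaling, UMI minimum, fold, free RNA, thinning and anchor genes. Python 3.11.15, numpy 2.4.6, scipy 1.17.1, pandas 2.3.3, scanpy 1.11.5 and matplotlib 3.10.9 were used.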

Additional observations from a re-analysis of the deposited data

Results flagged for a closer look

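Ifi27l2a was the 1 member that passed the limit (a log2 ratio of at least 0.32 either way) as higher in some endothelial classes and as lower in another. Its log2 ratio of metastatic to control CPM was 0.87 in general capillary cells and 1.59 in aerocytes, and -0.45 in vein cells. The difference between the classes was not tested, since each group was 1 library. In vein cells it was read with 142 and 126 UMIs, and in aerocytes with 48 and 120, of which 5 cells held 50.0% and 65.0%. Without those cells the ratio of aerocytes was 1.08.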

How the results depend on the processing

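The members' median log2 ratio in general capillary cells lay between 0.23 and 0.28 under every alternative run, in aerocytes between 0.27 and 0.36 and in vein cells between 0.18 and 0.28. The count of members counted as higher in general capillary cells was 12, and lay between 9 and 14 under other filters, gates and scalings. A limit of 1.5-fold left 4 of 36 (3.38% of all genes), and 1.1-fold gave 27 (26.5% of all genes). The difference in the share of Ifit-positive cells, 1.89 percentage points, was 3.18 with a higher minimum of genes per cell, 4.88 without thinning, 0.40 with other anchor genes and 0.64 with at least 3 of the 4 anchor genes. A stricter or looser definition changes which cells count and so the size of both shares. Percentage points at shares of unlike size are not directly comparable, and the causes of these shifts were not tested.

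In artery cells the median log2 ratio of 0.59 over 4 members was 0.020 with at least 20 UMIs (25 members), 0.0014 without barcodes with leukocyte or platelet markers (1 member) and turned to -0.039 with at least 500 UMIs (1 member). Of the values of single members under alternatives, 384 stayed within the member's counting interval and 10 left it. None of the members counted as higher turned in direction, while Rsad2, Oasl1, Bst2 and Ifi207, whose intervals include 0, changed sign in at least 1 alternative (Ifi207 from -0.18 to 0.07, Rsad2 from -0.05 to 0.04). Free RNA was subtracted as a set 5% of the UMIs of each class, and the true share was not measured. With it subtracted Zbp1 had 1.93 and Ifi207 -1.01. Ifi27l2a had no value, since the amount subtracted exceeded its UMIs in both libraries, so 5% was more than this gene's level allows. Alternatives without the 5 richest cells per gene, with Ifit-negative cells alone and without vein barcodes rich in epithelial RNA were chosen after seeing the data. No library could be left out and no paired analysis was possible because each group was 1 library. Artery cells had the fewest UMIs of the endothelial classes, and 4 members reached the minimum there.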
